A study of Rattus norvegicus with 12 samples.

Results

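Collagen fibres gain their strength from covalent crosslinks between lysine residues. Lysyl hydroxylases (Plod genes) add hydroxyl groups to lysines of the procollagen chain inside the cell, and lysyl oxidases (Lox genes), copper-dependent enzymes of the extracellular space, oxidise lysine and hydroxylysine side chains to aldehydes that then crosslink spontaneously. In bone the ratio of hydroxylated to plain lysine in the end peptides of collagen sets which kind of crosslink forms. The genes described here are the 5 lysyl oxidase genes, Lox and Loxl1 to Loxl4, and the 3 lysyl hydroxylase genes, Plod1 to Plod3. They were taken as every probe that the scanner files annotate with 1 of these gene names, which gave 8 of 34912 gene names, read by 12 probes.

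RNA of calvaria, the flat bone of the skull roof, was taken 24 h after surgery from rats aged 10 weeks and measured on 12 Agilent arrays of 1 colour, 4 in each of 3 groups. Laser bone carried an 8 by 3 mm defect ablated with an Er:YAG laser, an infrared laser used to cut hard tissue, at 127 mJ per pulse, 20 Hz and a feed near 2 mm/s. Bur bone carried a defect of equal area, drilled at a feed near 0.75 mm/s. Control bone was stripped of its periosteum, the membrane on its outer surface, and was not cut. The labels of the control samples also call them non-treated. Strain and sex are not given in the sources used here, and no label tells if a group's 4 samples are 4 animals. The p-values therefore measure the spread between samples, which may be technical.

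The median processed signal before normalization was 55.6 to 81.9 on laser arrays, 18.6 to 28.3 on bur arrays and 16.5 to 43.2 on control arrays. All laser arrays lay on 1 slide and all bur and control arrays on another, so that in both comparisons with the laser the slide cannot be told apart from the treatment. The bone markers Bglap, Ibsp, Alpl, Dmp1, Mepe and Sost were well above background on all 12 arrays. The other 2 of 8 such markers, Sp7 and Phex, were so on all 4 laser arrays, on 4 and 3 bur arrays and on 2 and 1 control arrays. Of 3 chondrocyte markers none was measurable enough to be tested. The control arrays were not alike: the myelin gene Mbp read 13.24, 7.88, 8.09 and 12.35 (log2 signal) on control arrays 1 to 4, against 7.36 to 7.78 on laser arrays and 6.13 to 9.86 on bur arrays. Counts are therefore also given without control arrays 1 and 4. In tissue RNA of this kind, fewer cells of a type and less RNA per cell cannot be told apart.

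All 12 probes of the 8 genes were well above background on all 12 arrays. Lox was read by 4 probes, Loxl4 by 2 and the other genes by 1 each. A gene is described by its brightest probe, and its other probes are given beside it. The following 60-base probes of Lox, Loxl1, Loxl2 and Loxl3 are shown because these related genes are told apart by the probe sequence alone. They are written 5′ to 3′ with no letters marked, and their positions are the rn4 coordinates in the files.
Lox, probe A_64_P038414, chr18:47898302-47898361, minus strand: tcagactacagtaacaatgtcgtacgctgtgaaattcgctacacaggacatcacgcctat
Loxl1, probe A_43_P19907, chr8:62088318-62088377, minus strand: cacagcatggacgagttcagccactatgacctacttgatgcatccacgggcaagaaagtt
Loxl2, probe A_44_P105225, chr15:50067990-50068049, plus strand: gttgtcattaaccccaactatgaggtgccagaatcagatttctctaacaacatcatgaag
Loxl3, probe A_64_P029142, chr4:117261532-117261591, plus strand: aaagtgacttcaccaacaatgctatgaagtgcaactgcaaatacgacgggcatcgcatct
Over the 59 pairs of probes of different genes, the longest run of bases in common was 8. The probes were compared only with each other and not with the transcripts of the other genes. Binding of a probe to the transcript of a related gene was therefore not tested. The brightest Lox probe, A_44_P1152134, lies at chr18:47896008-47896067 on the minus strand, and the Loxl4 probe A_44_P1101953 at chr1:248289231-248289290 on the plus strand. The probes of the lysyl hydroxylases lie at chr5:164987432-164987491 on the minus strand for Plod1, at chr8:97622880-97622939 on the plus strand for Plod2 and at chr12:20866795-20866854 on the plus strand for Plod3.

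Cut bone of both kinds read most of these genes higher than uncut bone. After bur drilling 5 of 8 genes passed the test as higher than control (Lox, Loxl2, Plod1, Plod2 and Plod3) and none as lower, where 20.3% of all 27194 probes tested were called, 10.8% as higher and 9.49% as lower. After laser ablation 5 of 8 genes were also higher than control (Lox, Loxl2, Loxl4, Plod2 and Plod3) and none lower, where 34.0% of all probes were called, 17.4% as higher and 16.6% as lower. Between laser and bur, Loxl4 was called higher with the laser, Plod1 was called lower, and 6 genes were not called, where 28.9% of all probes were called, 14.4% as higher and 14.6% as lower. The median log2 fold change of the 8 genes was 1.07 for bur against control, 0.77 for laser against control and 0.05 for laser against bur, beside medians of 0.01, -0.02 and -0.04 over all probes. The comparisons with control share the 4 control arrays. The test was limma's moderated test with Benjamini-Hochberg adjustment over all 27194 probes, called at an adjusted p under 0.05. Without control arrays 1 and 4 the count was 2 of 8 for bur against control (Plod1 and Plod3, both higher). Over all probes 12.3% were then called in either direction, and 50.2% of these calls were higher. For laser against control the count was also 2 of 8 (Plod2 and Plod3, both higher). There 25.0% of all probes were called in either direction, a share like that of the 8 genes, and 51.3% of these calls were higher.

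**Figure D1:**
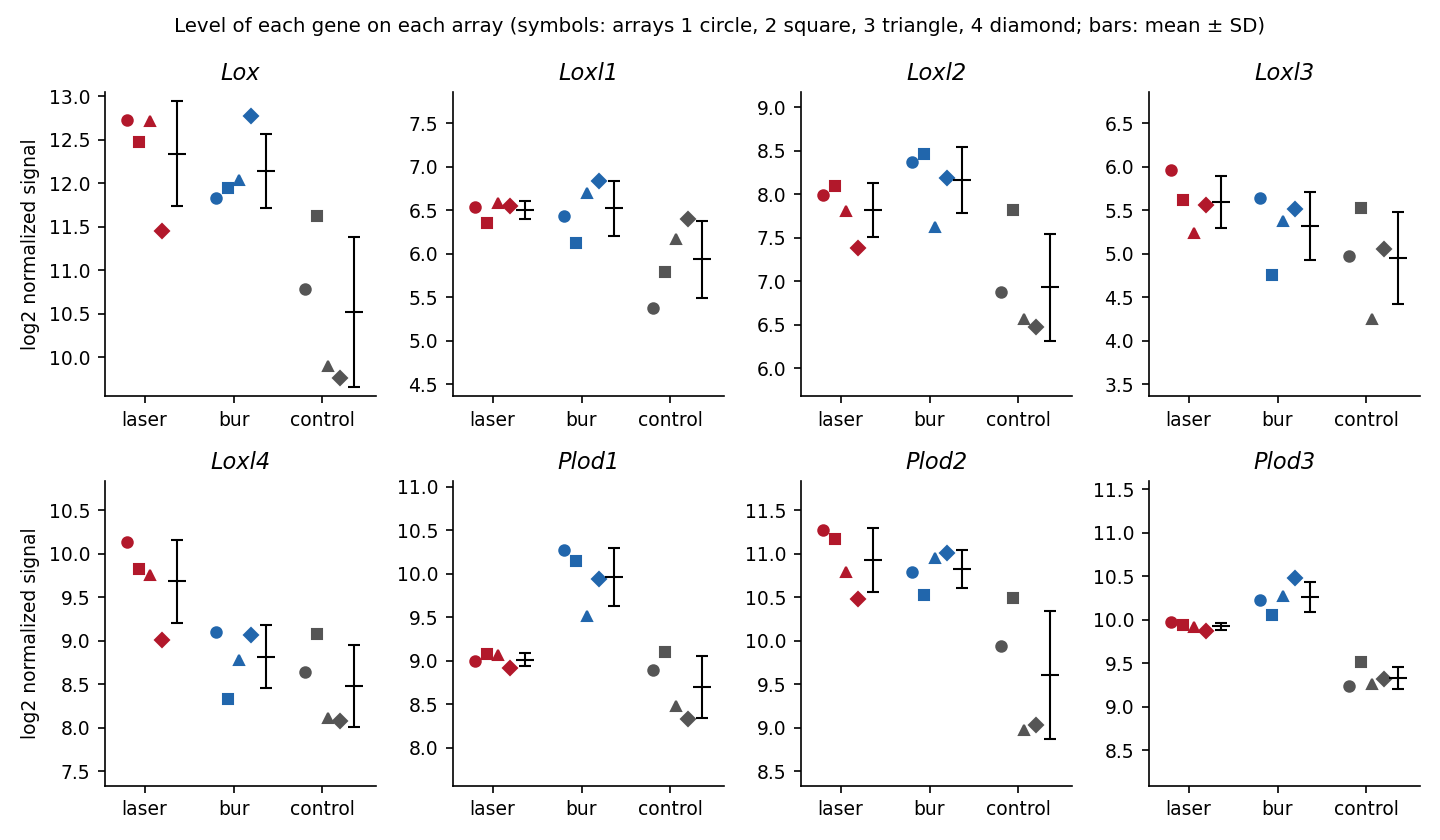
Log2 normalized signal (y axis) of the brightest probe of each of the 8 genes on each array, with laser, bur and control arrays from left to right in every panel; bars give the mean ± SD of 4 arrays, and all panels span the same number of log2 units. Plod1 stands apart on the bur arrays alone, while Lox and Plod2 read high on both laser and bur arrays and spread widest among the controls.

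Lox encodes the main lysyl oxidase of fibrillar collagen and elastin, made as a proenzyme and cut outside the cell. Its log2 signal was 12.72, 12.47, 12.71 and 11.45 on laser arrays 1 to 4, 11.82, 11.94, 12.04 and 12.77 on bur arrays 1 to 4, and 10.78, 11.62, 9.90 and 9.76 on control arrays 1 to 4. Every bur array read above every control array, and laser array 4 alone among the laser arrays fell below the highest control array. The group means were 12.34 ± 0.60 for laser, 12.14 ± 0.42 for bur and 10.52 ± 0.86 for control (SD, n = 4 each). Lox was 3.54-fold higher with the laser than in control (log2 fold change 1.82 ± 0.42 SE, limma adjusted p = 0.00705) and 3.09-fold higher with the bur than in control (1.63 ± 0.42 SE, adjusted p = 0.0202). Between laser and bur no difference was shown: the log2 fold change was 0.20 with a 95% interval of -0.74 to 1.13 (adjusted p = 0.774).

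The other 3 Lox probes gave fold changes of the same sign against control. For laser against control their log2 fold changes were 1.76, 1.46 and 1.48, all called, with adjusted p-values of 0.0169, 0.0236 and 0.0318. For bur against control they were 1.64, 1.41 and 1.30, of which the first and the second were called and the last was not (adjusted p = 0.0349, 0.0417 and 0.0750). On all 4 probes the lowest 2 arrays were controls 3 and 4, and control 2 lay nearest to the cut bone. On the 3 dimmer probes control 2 read above the lowest bur array, so bur and control overlapped there. Across the 4 probes the log2 fold change for laser against bur lay between 0.05 and 0.20. The bur against control call of the brightest probe was lost without bur array 4 (1.42, adjusted p = 0.0604) and without control array 4 (1.38, adjusted p = 0.0536), and it was lost without control arrays 1 and 4 together (1.38, adjusted p = 0.115). Without control arrays 1 and 4 the laser against control value was 1.58, with an adjusted p of 0.0509.

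**Figure D2:**
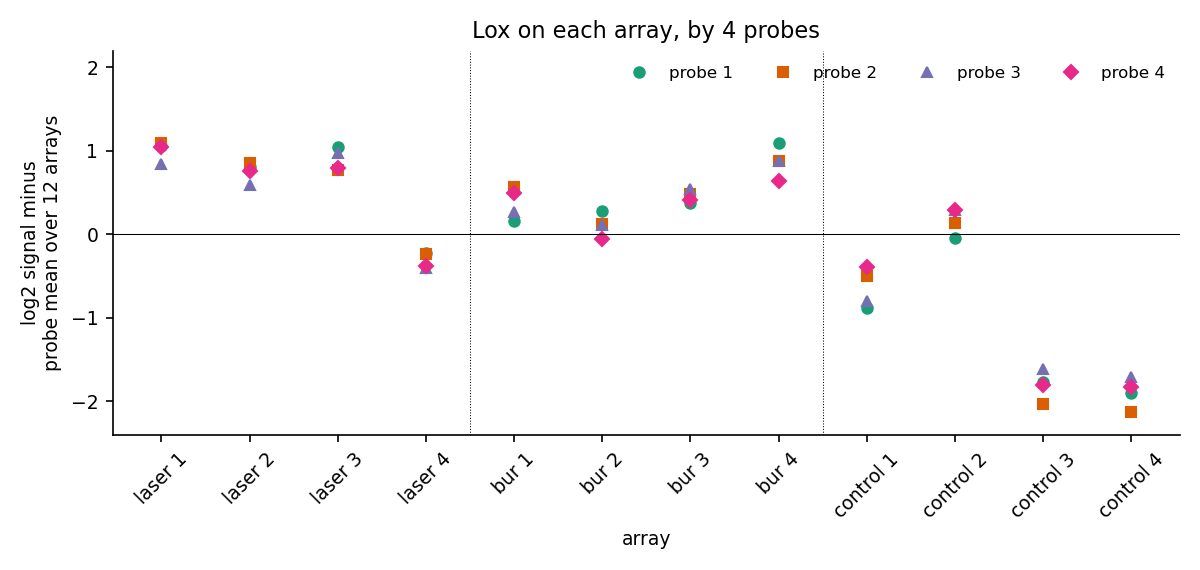
Log2 signal of the 4 Lox probes minus each probe's own mean over the 12 arrays (y axis), for laser, bur and control arrays from left to right (x axis). On all 4 probes controls 3 and 4 read lowest, and laser 4 read below the other laser arrays.

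Loxl2, an oxidase known for crosslinking the collagen IV of basement membranes, read 7.99, 8.10, 7.81 and 7.39 on the laser arrays, 8.38, 8.46, 7.63 and 8.19 on the bur arrays and 6.87, 7.82, 6.56 and 6.47 on the control arrays. Control array 2 read within the range of both cut groups and the other 3 controls below them. Loxl2 was 2.35-fold higher with the bur than in control (log2 fold change 1.23 ± 0.30 SE, adjusted p = 0.0149) and 1.85-fold higher with the laser than in control (0.89 ± 0.30 SE, adjusted p = 0.0406). The laser call was near the threshold: without laser array 1, 2 or 3 or without control array 1, 3 or 4 the log2 fold change was 0.74 to 0.89 and the call was lost (adjusted p 0.0729 to 0.107). The laser call was also lost with no filter on dim probes (adjusted p = 0.0593) and with only the 2 groups compared (adjusted p = 0.0588). Without control arrays 1 and 4 together it was lost as well (0.63, adjusted p = 0.239). The bur call was lost only without control arrays 1 and 4 together (0.97, adjusted p = 0.121). Laser and bur were not called different for Loxl2 (log2 fold change -0.34, 95% interval -1.004 to 0.32, adjusted p = 0.434).

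Loxl4 was the 1 lysyl oxidase called between the cutting methods, and its 2 probes disagreed. Its role in bone is less well known than that of Lox. The brighter probe read 10.14, 9.83, 9.76 and 9.01 on the laser arrays, 9.10, 8.32, 8.78 and 9.07 on the bur arrays and 8.64, 9.07, 8.11 and 8.08 on the control arrays. Laser arrays 1 to 3 read above all others, and laser array 4 lay among the highest bur and control arrays. By this probe Loxl4 was 2.31-fold higher with the laser than in control (log2 fold change 1.21 ± 0.29 SE, adjusted p = 0.00858) and 1.82-fold higher with the laser than with the bur (0.87 ± 0.29 SE, adjusted p = 0.0454), while the bur value did not pass against control (0.34 ± 0.29 SE, adjusted p = 0.448).

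The dimmer Loxl4 probe, which lies upstream of the brighter one at chr1:248287124-248287183, read 5.47, 5.04, 5.27 and 4.22 on the laser arrays, 4.79, 4.73, 4.94 and 5.20 on the bur arrays and 4.38, 5.21, 4.21 and 3.64 on the control arrays. It was called in no comparison, with log2 fold changes of 0.64 for laser against control (adjusted p = 0.160), 0.55 for bur against control (adjusted p = 0.269) and 0.09 for laser against bur (adjusted p = 0.879). With the mean of both probes the laser against bur value was 0.48 and was not called (adjusted p = 0.273). The call of the brighter probe for laser against bur was also lost without laser array 1, 2 or 3 or bur array 2, 3 or 4, at log2 fold changes of 0.70 to 0.95 and adjusted p-values of 0.0568 to 0.127. Its laser against control value without control arrays 1 and 4 was 1.09, with an adjusted p of 0.0583.

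Loxl1 and Loxl3 were called in no comparison. Loxl1, known in mice for the upkeep of elastic fibres, had group means of 6.51 ± 0.10 for laser, 6.52 ± 0.32 for bur and 5.93 ± 0.45 for control. Its laser arrays lay within 6.36 and 6.58, and control array 4, at 6.39, reached into that range. The log2 fold change of Loxl1 was 0.57 ± 0.22 SE for laser against control (adjusted p = 0.0667) and 0.59 ± 0.22 SE for bur against control (adjusted p = 0.0841). Without control array 4 these values were 0.73 (adjusted p = 0.0297) and 0.74 (adjusted p = 0.0398), both past the threshold. Laser against bur was -0.02, with an interval of -0.51 to 0.47. Loxl3 averaged 5.59 ± 0.30 in laser, 5.32 ± 0.39 in bur and 4.95 ± 0.53 in control, and the groups overlapped in all comparisons. Its log2 fold changes were 0.64 for laser against control (adjusted p = 0.0961), 0.37 for bur against control (adjusted p = 0.383) and 0.27 for laser against bur (adjusted p = 0.504). Without control array 2 the laser against control value of Loxl3 was 0.83 and passed the threshold (adjusted p = 0.0382).

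**Figure D3:**
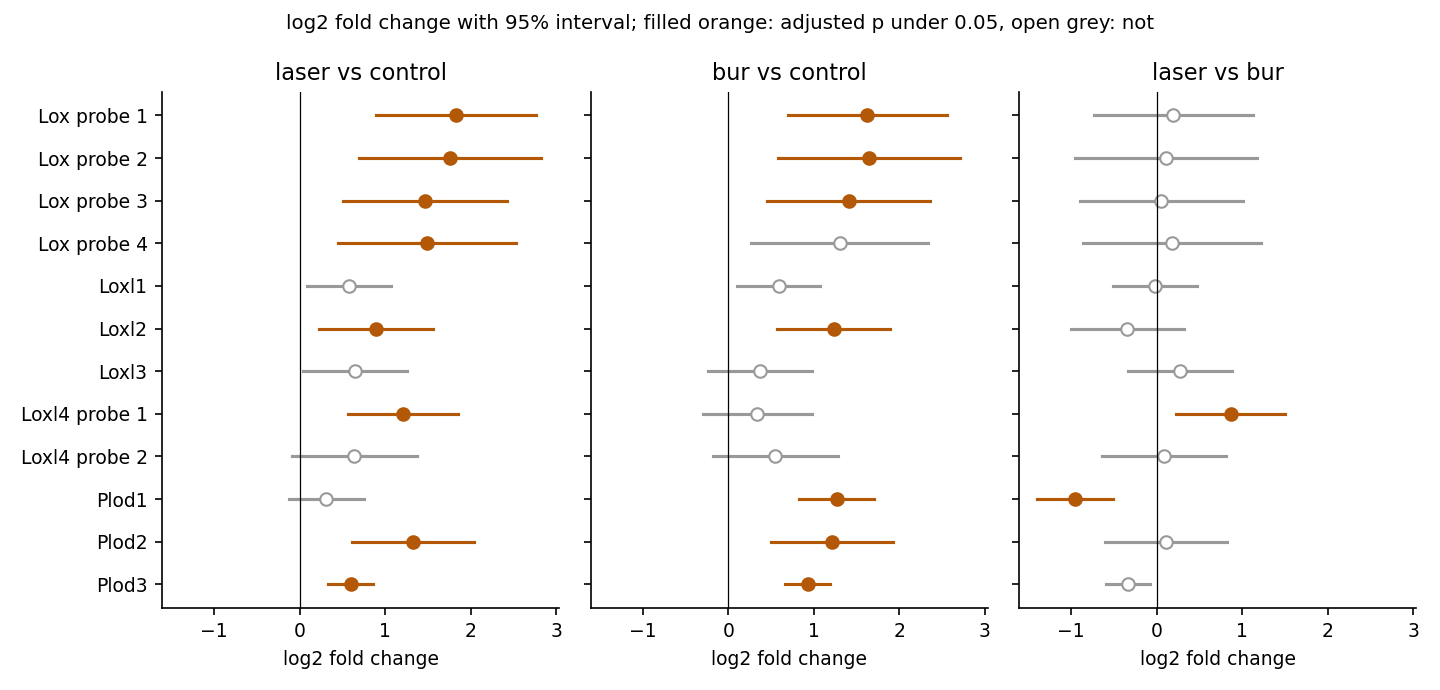
Log2 fold change (x axis) with its 95% interval for all 12 probes (rows) in the 3 comparisons; filled orange points passed an adjusted p of 0.05 and open grey points did not. Probes of a gene are numbered from the brightest. In laser against bur, Plod1 lies to the left of 0 and the brighter Loxl4 probe to the right.

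Each of the 3 lysyl hydroxylases was called in at least 1 comparison. Plod1 encodes the enzyme that hydroxylates lysines of the collagen triple helix. It read 8.995, 9.08, 9.06 and 8.92 on the laser arrays, 10.27, 10.15, 9.51 and 9.94 on the bur arrays and 8.89, 9.11, 8.48 and 8.33 on the control arrays. Every bur array read above every laser and control array, and the laser arrays lay inside the range of the controls. Plod1 was 2.40-fold higher with the bur than in control (log2 fold change 1.27 ± 0.20 SE, adjusted p = 0.00182). It was lower with the laser than with the bur, at 0.515 of the bur level (-0.96 ± 0.20 SE, 95% interval -1.40 to -0.51, adjusted p = 0.00482). For laser against control the log2 fold change was 0.31 (95% interval -0.13 to 0.75, adjusted p = 0.259).

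Plod2 encodes the hydroxylase of the collagen end peptides, the telopeptides, whose hydroxylysines give the crosslinks typical of bone and of scar. It read 11.27, 11.17, 10.79 and 10.48 on the laser arrays, 10.79, 10.52, 10.96 and 11.01 on the bur arrays and 9.94, 10.49, 8.97 and 9.03 on the control arrays. All laser and bur arrays read above the highest control array except laser array 4, which fell just below control array 2. Plod2 was 2.50-fold higher with the laser than in control (log2 fold change 1.32 ± 0.32 SE, adjusted p = 0.00890) and 2.32-fold higher with the bur than in control (1.21 ± 0.32 SE, adjusted p = 0.0219). Laser against bur was 0.11, with an interval of -0.60 to 0.82 (adjusted p = 0.838). The bur against control call was lost without bur array 4 (1.15, adjusted p = 0.0588), control array 3 (1.002, adjusted p = 0.0518) or control array 4 (1.02, adjusted p = 0.0575), and without control arrays 1 and 4 together (1.09, adjusted p = 0.101).

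Plod3, which encodes a hydroxylase that also carries the glycosyltransferase activity that adds glucose to hydroxylysine-bound galactose, had the smallest SD of the 8 genes within each group (0.04 on laser, 0.17 on bur and 0.12 on control arrays). It read 9.97, 9.94, 9.91 and 9.88 on the laser arrays, 10.23, 10.06, 10.28 and 10.48 on the bur arrays and 9.23, 9.51, 9.26 and 9.32 on the control arrays. The 3 groups did not overlap, with bur highest, laser between and control lowest. Plod3 was 1.51-fold higher with the laser than in control (log2 fold change 0.59 ± 0.12 SE, adjusted p = 0.00297) and 1.90-fold higher with the bur than in control (0.93 ± 0.12 SE, adjusted p = 0.000623). Laser against bur missed the threshold (-0.33 ± 0.12 SE, 95% interval -0.59 to -0.08, adjusted p = 0.0541) and passed it without bur array 2 (-0.40, adjusted p = 0.0355). Groups without overlap were found for 4 of 8 genes in bur against control, 1 of 8 in laser against control and 2 of 8 in laser against bur, where 21.3%, 36.3% and 34.4% of all probes did not overlap in either direction. All probes read above control without overlap came to 11.2% for bur and 18.5% for laser, and 16.2% read above bur on the laser arrays. The genes of this kind were Lox, Plod1, Plod2 and Plod3 above control with the bur, Plod3 above control with the laser, and Plod1 and Plod3 below bur with the laser. Lox was so by its brightest probe only, and its other 3 probes overlapped. Counted by probe, the groups did not overlap for 4, 1 and 2 of 12 probes in the same comparisons.

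The calls of Plod1 and Plod3 for bur against control, of Plod2 and Plod3 for laser against control and of Plod1 for laser against bur held under every alternative of the processing that was run for that comparison. For the comparisons with control these included leaving out control arrays 1 and 4 together, which was not run for laser against bur. For Plod1 the log2 fold change for laser against bur lay between -1.12 and -0.82 over 18 alternatives and for bur against control between 1.01 and 1.42 over 19. In the authors' deposited table Plod1 had log2 fold changes of 1.15 for bur against control (adjusted p = 0.000442) and -0.96 for laser against bur (adjusted p = 0.000894), and Plod3 had -0.43 for laser against bur (adjusted p = 0.0160). The authors' deposited table also listed Loxl1 as called against control, at 0.72 with the laser (adjusted p = 0.00511) and at 0.71 with the bur (adjusted p = 0.00749). In the authors' deposited table Loxl3 was past the threshold for laser against control, at 0.51 (adjusted p = 0.0332). There the brighter Loxl4 probe was past it for laser against control (1.31, adjusted p = 0.00201) and for laser against bur (0.78, adjusted p = 0.0347). The dimmer Loxl4 probe was past it in neither (0.43, adjusted p = 0.0843, and -0.03, adjusted p = 0.917).

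Plod1 and Plod2 are among the genes known as targets of hypoxia-inducible factor in cultured human cells, and a list of other hypoxia-induced genes is given beside them. Whether the other crosslinking genes are such targets was not examined here. Of 13 hypoxia-induced genes, 1 was called higher for laser against control (Pdk1, a kinase that restrains mitochondrial pyruvate use, 0.65 log2), 9 were called higher for bur against control and 11 were called lower for laser against bur, with none called the other way. The medians of this list were -0.01, 1.39 and -1.13 log2, and the shares called over all probes were 34.0%, 20.3% and 28.9%. For bur against control the largest log2 fold changes were those of the glucose transporter gene Slc2a1 (2.38, adjusted p = 0.0199), of Adm, the gene of the vasodilator adrenomedullin (1.92, adjusted p = 0.0175), and of Ndrg1 (1.90, adjusted p = 0.0199). For laser against bur the largest decreases were those of Egln3, a prolyl hydroxylase that marks hypoxia-inducible factor for breakdown (-2.17, adjusted p = 0.0309), Ndrg1 (-1.92, adjusted p = 0.0141) and Slc2a1 (-1.89, adjusted p = 0.0407). Whether these genes share a cause with the crosslinking genes was not tested.

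The core word bound by hypoxia-inducible factors, ACGTG or GCGTG on either strand, was looked for in the 300 bases from 250 before to 50 after the gene start, and no other word was searched. Promoter sequences from RefSeq on the GRCr8 assembly matched 6 of the 8 genes. Of these, Plod2 held 4 such words, Plod3 2, Plod1 1 and Loxl3 1, while those of Loxl1 and Loxl4 held none in this window, beside 41.6% of 33469 promoters that held at least 1. The promoters of Plod1 and Plod2 are printed because these hydroxylases differed in pattern, Plod1 between laser and bur and Plod2 not. They run 5′ to 3′ along the gene, with the words in capitals.
Plod1, chr5:163650688-163650987, minus strand: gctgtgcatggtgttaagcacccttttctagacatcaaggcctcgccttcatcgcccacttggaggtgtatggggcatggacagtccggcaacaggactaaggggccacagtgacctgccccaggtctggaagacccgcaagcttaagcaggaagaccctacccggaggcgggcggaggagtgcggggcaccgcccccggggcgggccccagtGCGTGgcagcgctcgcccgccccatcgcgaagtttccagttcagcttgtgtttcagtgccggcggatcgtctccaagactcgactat
Plod2, chr8:101964068-101964367, plus strand: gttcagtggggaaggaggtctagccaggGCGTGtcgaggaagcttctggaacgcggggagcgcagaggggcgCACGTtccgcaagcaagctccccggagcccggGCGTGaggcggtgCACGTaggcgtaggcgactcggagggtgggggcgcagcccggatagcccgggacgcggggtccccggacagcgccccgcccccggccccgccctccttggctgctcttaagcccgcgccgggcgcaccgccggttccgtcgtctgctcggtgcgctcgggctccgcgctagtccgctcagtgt
Counted from the gene start, the words of Plod2 began at bases -222, -178, -146 and -133, and that of Plod1 at base -37. A match of letters is a description of the sequence and was not tested for binding.

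Other steps of collagen synthesis were read by a list of enzymes and chaperones of the endoplasmic reticulum. Of 17 genes for collagen hydroxylation, glycosylation and folding, 8 were called higher and 2 lower for laser against control, 2 higher and none lower for bur against control, and 2 higher and 3 lower for laser against bur, with medians of 0.98, 0.60 and 0.18 log2. Over all probes 34.0%, 20.3% and 28.9% were called in these comparisons. With the laser against control the largest log2 fold changes were those of Crtap, a subunit of the prolyl 3-hydroxylation complex (2.01, adjusted p = 0.00213), Fkbp10, a chaperone needed for telopeptide lysine hydroxylation (1.80, adjusted p = 0.00301), and Serpinh1, the collagen chaperone HSP47 (1.38, adjusted p = 0.0257). The 2 called lower were P3h2 (-0.77, adjusted p = 0.0430), well above background on 4 laser but only 2 control arrays, and Tmem38b, an ion channel of the endoplasmic reticulum (-0.61, adjusted p = 0.00889). With the bur against control only Colgalt1, a hydroxylysine galactosyltransferase (0.82, adjusted p = 0.00167), and P4hb, a prolyl 4-hydroxylase subunit (0.71, adjusted p = 0.0129), were called. Crtap, which 3 of 4 bur arrays read well above background, was also 1.99 log2 higher with the laser than with the bur (adjusted p = 0.00271), where P4hb was lower (-0.72, adjusted p = 0.00843).

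Of 10 genes for substrates of the crosslinking enzymes, 5 were called higher for laser against control, 2 for bur against control and 3 for laser against bur, with none called lower. The medians were 0.91, 0.70 and 0.31 log2. Over all probes 34.0%, 20.3% and 28.9% were called in these comparisons, 17.4%, 10.8% and 14.4% as higher. The collagen I chain gene Col1a2 was higher with the laser than in control (1.84 log2, adjusted p = 0.000163) and than with the bur (1.86, adjusted p = 0.000161), whereas for bur against control it was -0.02 (adjusted p = 0.958). Col3a1, of collagen III, was higher with the laser than in control (1.93, adjusted p = 0.00306) and with the bur than in control (2.04, adjusted p = 0.00433). Among the 3 called for laser against bur was Col2a1, a cartilage collagen gene that was well above background on all 4 laser arrays and on no bur or control array. It was at least 1.81-fold higher with the laser than with the bur, taking for the dim arrays the higher of their detection limit and their own signal. It passed the filter only through the laser arrays, so its call is no support.

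Of the 14 genes for procollagen processing and lysyl oxidase activation, 12 could be tested. For laser against control 2 were called higher and 1 lower, for bur against control 3 higher, and for laser against bur 2 lower, with medians of 0.29, 0.46 and -0.09 log2. The shares called over all probes were 34.0%, 20.3% and 28.9% in these comparisons. Postn, the gene of periostin, a matrix protein that brings the activating protease to Lox, was higher with the laser than in control (2.21, adjusted p = 0.0135) and with the bur than in control (2.25, adjusted p = 0.0198). Fn1, which encodes fibronectin, was higher with the bur than in control (1.74, adjusted p = 0.00234) and lower with the laser than with the bur (-2.10, adjusted p = 0.000352). Bmp1, the gene of the protease that cuts the lysyl oxidase proenzyme, was called in no comparison, at 0.27 for laser against control, 0.45 for bur against control and -0.18 for laser against bur. Of 6 copper supply genes, 1 was called higher and 1 lower for laser against control, 4 higher and 1 lower for bur against control, and 3 lower for laser against bur. Atp7a, the pump that loads copper onto secreted enzymes such as Lox, was higher with the bur than in control (0.84, adjusted p = 0.0150) and lower with the laser than with the bur (-0.96, adjusted p = 0.00532).

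**Figure D4:**
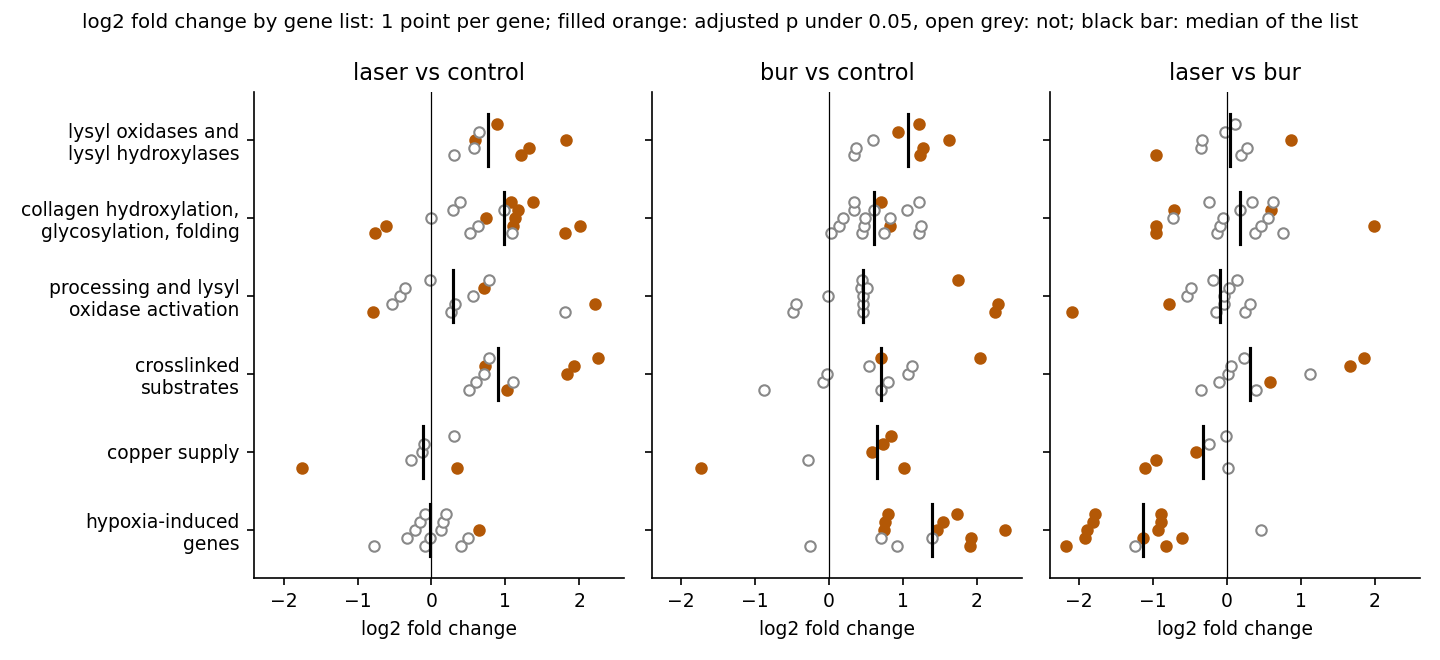
Log2 fold change (x axis) of each gene of the 6 lists (rows) in the 3 comparisons; filled orange points passed an adjusted p of 0.05, open grey points did not, and the black bar is the list's median. All 6 lists have positive medians for bur against control. For laser against bur the medians of hypoxia-induced, copper supply and processing genes are negative (-1.13, -0.33 and -0.09), and that of the crosslinking enzymes lies at 0.05.

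By the root mean square difference of centred log2 values over the 12 arrays, a measure of likeness in which 0 is identity, the closest of 13640 genes to Lox were Timp1, a metalloproteinase inhibitor, at 0.315, Plod2 at 0.351 and Smoc2 at 0.359, where the spread of Lox itself was 0.996. Closest to Plod2 was Col5a2, a collagen V chain gene, at 0.233, with a spread of 0.735 for Plod2. Loxl4 was nearest to Adam12 at 0.157, Bmp7 at 0.192 and Bambi at 0.208. Plod1 was nearest to Epb41l2 at 0.156, Pmp22 at 0.157 and Fgd6 at 0.160. Plod3 lay nearest to Nagk at 0.114, Ndfip1 at 0.117 and Yif1a at 0.118, and Loxl2 to Pwwp2b at 0.214, Wsb2 at 0.232 and Hrasls at 0.274. Among the 8 genes themselves the closest pairs were Loxl1 and Plod3 at 0.295, Lox and Plod2 at 0.351 and Loxl2 and Plod1 at 0.355. The measure also depends on a gene's own spread, which was only 0.399 for Plod3 beside 0.652 for Loxl2 and 0.593 for Plod1. These are descriptions over the same 12 arrays and carry no test.

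Markers of several cell types moved with the groups. Beside their counts, 34.0% of all probes were called for laser against control, 20.3% for bur against control and 28.9% for laser against bur. Of 8 osteoblast and osteocyte markers, 4 were called higher for laser against control, 2 for bur against control and 1 for laser against bur. Their summed linear signal ranged over 75960 to 152019 on laser arrays, 71774 to 122713 on bur arrays and 41513 to 83323 on control arrays. Most of this sum came from Bglap, which was called in no comparison. The mean log2 signal of Bglap was 16.37 on laser, 16.04 on bur and 15.72 on control arrays. Of 7 periosteal and fibroblast markers, 4, 3 and 1 were called higher in the same comparisons, with sums of 6885 to 12125 on laser arrays, 7232 to 9870 on bur arrays and 4976 to 9947 on control arrays. All 6 monocyte and macrophage markers were called higher for bur against control, 4 were called higher for laser against control and 3 were called lower for laser against bur, with sums of 4645 to 6385 on laser arrays, 7201 to 12890 on bur arrays and 2277 to 3858 on control arrays. All 4 erythroid markers were called lower in both cut groups than in control. All 4 bur arrays had macrophage sums above those of every laser and control array, and Plod1 and Plod3 also read highest on the bur arrays. Of 4 neutrophil markers 2 were called higher for laser against control and for laser against bur, and 1 lower for bur against control. Of 4 endothelial markers 1 was called higher and 1 lower for laser against control and 1 lower for bur against control. Of 4 neural markers 3 were called lower in each comparison with control and 1 higher for laser against bur. Among those called lower, Slc1a2 was well above background on no bur, 1 laser and 3 control arrays. Gfap, called in all 3 comparisons, was dim, with mean log2 signals of 2.16 on laser, 0.67 on bur and 3.10 on control arrays. Another Gfap probe was well above background on 2 laser arrays and on no bur or control array. The 2 skeletal muscle markers that could be tested, Acta1 and Ckm, were called higher for laser against control and for laser against bur. Acta1 was well above background on 4 laser, no bur and 1 control array, and Ckm on 4, 2 and 2. Acta1 passed the filter only through the laser arrays and Slc1a2 only with the control arrays, so their calls are no support. The part of these cell types in the results on the crosslinking genes was not tested.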

How the data were processed

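Scanner files of 12 arrays were used. The deposited files give the intensity of each spot as a processed signal, already corrected for background per the file headers, with flags for outliers, saturation and signal well above background. The software was Agilent Feature Extraction (version 11.0.1.1 in the submitters' processing notes). An array held 62976 spots, 4259 for control, and none was saturated. RNA input was 200 ng labelled with Cy3, per the labels' protocols.

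Control and outlier spots were left out, signals taken to log2, spots of a probe averaged and the 45598 rat probes quantile normalized between arrays, as the title of the authors' deposited log2 values names that method. Probes well above background on at least 4 of 12 arrays were kept (27194), a probe counting when at least 50% of its spots were. Of the values, 19 were missing, none of them of a crosslinking gene. All arrays entered 1 limma 3.58.1 fit in R 4.3.3, and the threshold for a call was 0.05 after Benjamini-Hochberg adjustment within each comparison. The number of arrays limits the precision.

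Genes named are the 8 crosslinking genes and their probes, per list and comparison up to 3 called genes with the largest change in each direction, and the 3 genes most like each called gene, some of which are not reported here. The genes and lists were chosen with earlier results of these data known. Markers of 9 cell kinds (osteoblast and osteocyte, periosteal and fibroblast, monocyte and macrophage, neutrophil, erythroid, endothelial, chondrocyte, skeletal muscle, neural) were read beside them. Bmp1, Col1a2 for bur against control, Mbp and single marker genes were named after their values were seen. The authors' deposited table gives a log2 fold change and a p-value, raw and adjusted, under limma's column names, per the file headers, and held 10 of the 12 probes.

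Alternatives were scaling to the 75th percentile, normexp background correction with an offset of 50, other filters, 1 probe per gene, the mean of a gene's probes, only the 2 groups compared, array weights, a replicate block, the authors' deposited values and each array left out. Leaving out control arrays 1 and 4 together was chosen after seeing the data. The fit was tested on simulated data.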

Additional observations from a re-analysis of the deposited data

How the results depend on the processing

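Over 642 alternative values of single probes, 535 kept their direction and side of the threshold, 63 lost a call, 24 gained one and 20 changed sign. Every sign change was in an uncalled value for laser against bur. By 75th percentile scaling that log2 fold change was -0.0708 for the Lox probe A_42_P585695, -0.0789 for the Lox probe A_64_P038414, 0.0010 for Loxl1 and -0.0872 for Plod2. With normexp background correction it was -0.0245 for A_64_P038414. With the authors' deposited values it was -0.0208 for A_64_P038414, 0.0071 for Loxl1 and -0.0309 for the dimmer Loxl4 probe A_42_P463602. With each array left out it ranged over -0.0468 to 0.395 for A_42_P585695, -0.102 to 0.355 for A_64_P038414, -0.152 to 0.0875 for Loxl1, -0.0729 to 0.344 for A_42_P463602 and -0.00653 to 0.258 for Plod2.

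The number of crosslinking genes called was 5 of 8 for bur against control (20.3% of all probes), 2 without control arrays 1 and 4 (12.3%) and 3 to 5 with each array left out (14.8% to 19.5%), the lowest without bur array 4. It was 5 for laser against control (34.0%), 2 without control arrays 1 and 4 (25.0%), 4 to 6 with each array left out (26.0% to 32.8%) and 7 with the authors' deposited values (36.7%). It was 2 for laser against bur (28.9%), 1 with no filter on dim probes (20.1%), 1 with the mean of the kept probes of a gene (28.9%) and 1 to 2 with each array left out (21.6% to 28.0%). It was 3 with normexp background correction (29.5%), probes well above background on all 12 arrays (34.5%) and 1 probe per gene (29.7%). With array weights (37%) and the authors' deposited values (29.7%) it was also 3. In each of these settings Plod3 gained a call (-0.43 with the authors' values). Under 75th percentile scaling it stayed 2 (31.3%), with Plod3 gained (-0.49, adjusted p = 0.0134) and Loxl4 lost (0.74, adjusted p = 0.0776). Over all probes, the 5514 calls of 27194 for bur against control became 8291 of 45598 with no filter (18.2%), 3397 with only the 2 groups compared and 3342 without control arrays 1 and 4. The causes were not tested beyond the change in arrays or probes that each setting makes.

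The groups share replicate numbers, which no label ties to a shared animal, batch or day. The deviations of same-numbered arrays correlated at -0.0672 to 0.29 (median 0.129, 12 pairs) and those of other arrays at -0.393 to 0.207 (median -0.0313, 36 pairs), and 7 of 12 arrays correlated best with their own number. Since not every pair lay above 0.1, the numbers were not taken to pair the samples, though the values hint at it. The neutrophil markers Mpo and Elane also split by number in all groups. Mpo read 7.97 to 8.29 (log2 signal) on arrays 1 and 2 and 9.06 to 11.06 on arrays 3 and 4. Elane read 8.19 to 9.12 on arrays 1 and 2 and 9.47 to 11.11 on arrays 3 and 4. S100a8 and S100a9 did not split in this way. No label explains the split, and its part in the results was not tested. With the replicate block 6 of 8 crosslinking genes were called for bur against control (21.6% of all probes), 6 for laser against control (36.4%) and 1 for laser against bur (30.7%). Loxl1 gained its calls for bur against control (0.59, adjusted p = 0.0418) and laser against control (0.57, adjusted p = 0.0313), and Loxl4 lost its call for laser against bur (0.87, adjusted p = 0.0515).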

Other observations

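A pair of further probes carry names related to the lysyl oxidases and were looked at after their values were seen. LOC103689962, annotated as similar to lysyl oxidase homolog 1, was well above background on all 4 laser arrays and on no bur or control array. It was at least 1.85-fold higher with the laser than in control and at least 1.66-fold higher with the laser than with the bur, taking for the dim arrays the higher of their detection limit and their own signal. It passed the filter on dim probes only through the laser arrays, so no p-value is given. Loxl1 itself was called in no comparison. LOC100910488, annotated as a Loxl4 pseudogene, was called in no comparison (limma adjusted p = 0.333 for laser against control, 0.325 for bur against control and 0.0558 for laser against bur). It was well above background on only 2 laser, 3 bur and 3 control arrays. Its mean log2 signals were low, at 2.42 on laser, 4.20 on bur and 3.26 on control arrays.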
